A study of Mus musculus with 8 samples.

Results

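The uterine transcriptome in estrus was compared with that in diestrus in 4 of the 8 libraries of the series, 2 from each stage. The libraries were chosen by their stage labels alone, and every gene with enough counts entered the comparison. All 8 libraries were made from uterus of female mice of the outbred ICR stock, aged 6 to 8 weeks. The labels name no genotype and no agent in any group, and stage is the only label that differs. Estrus, diestrus, proestrus and metestrus have 2 libraries each. Cells washed from the vagina were stained and counted on slides to set the stage, and the uterus was taken once a stage had been found. The series title asks how estrogen regulates the gene Fam3d in the uterus over the cycle. The labels do not say whether the 2 libraries of a stage came from separate animals, so each p-value below rests on a spread between samples that may be technical.

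In the mouse estrous cycle, estradiol from the ovarian follicles climbs during proestrus and ovulation follows in estrus. The corpora lutea formed after ovulation then secrete progesterone through metestrus and diestrus. In the uterus, estradiol drives proliferation and secretion of the luminal and glandular epithelium and draws water and leukocytes into the tissue. Progesterone acts largely through the stroma, and its epithelial signal runs through Indian hedgehog (Ihh), whose receptor Patched and transcription factor Gli1 act in the stroma below.

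The deposited counts of the 4 libraries summed to between 17863546 and 21896786, and 18114 of 52308 genes passed the filter on low counts. Gene levels are in CPM, counts scaled to a common library size with TMM factors. Where 2 levels of a stage are given, they are those of its library 1 and then its library 2. Differences are log2 fold changes of estrus over diestrus ± the standard error (SE) of an edgeR quasi-likelihood fit to all 8 libraries. A gene passed the test at an adjusted p under 0.05, with Benjamini-Hochberg adjustment over all genes tested. The tissue label was checked on 9 defining genes of the uterus, all detected in each of the 4 libraries. Among them, Hoxa10 lay between 112 and 358 CPM, Esr1 between 301 and 460 CPM, the epithelial Krt8 between 145 and 1000 CPM, Foxa2 of the glands between 5.37 and 17.3 CPM, and Myh11 of smooth muscle between 1450 and 3640 CPM. These are bulk tissue values, in which fewer cells of a type and less RNA per cell cannot be told apart.

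The 2 diestrus libraries stood far apart. Over 2-fold differences in CPM separated the libraries of a stage at 1282 tested genes in estrus (7.08%) and at 2713 in diestrus (15%), and over 4-fold differences at 227 and 743 genes. Of those 743, 348 were higher in diestrus library 1 and 395 in library 2. Prss29 and Prss28, serine proteases made by uterine glands, had 5510 and 2040 CPM in diestrus library 1, against 0.0504 and 0 CPM in library 2. Prss29 in the estrus libraries had 0 and 23.6 CPM. The remaining genes with the widest gaps on that side were the water channel Aqp8 (161 against 0.202 CPM), the transporter Abcb1b (563 against 1.16 CPM), the kallikrein Klk1 (326 against 0.706 CPM) and Prap1, a secreted acidic protein (2300 against 4.59 CPM). On the other side, diestrus library 2 was high and library 1 low in the calcium-binding protein Calb1 (2.11 in library 1 and 188 CPM in library 2), the mucin glycosyltransferase Gcnt3 (0.675 and 59.0 CPM), the sialic acid lyase Npl (2.52 and 146 CPM), Col26a1 (1.17 and 66.9 CPM), Fxyd4 (1.35 and 75.7 CPM) and Adgrg7 (1.44 and 61.8 CPM). None of these 12 genes passed edgeR's test between the stages. By DESeq2, Abcb1b (adjusted p = 0.000102), Aqp8 (0.00508), Klk1 (0.00592), Col26a1 (0.0108) and Prss28 (0.0495) were lower in estrus. With no filter on low counts the same genes and Npl (0.0424) were lower, and by limma-voom Adgrg7 was higher (0.0374). All 12 were chosen for the gap between the diestrus libraries, so their log2 fold change depended on the library left out. That of Calb1 was -2.16 without library 1 and 4.32 without library 2. Abcb1b (-0.59 and -9.48), Fxyd4 (0.94 and 6.76) and Adgrg7 (1.92 and 7.36) kept their direction, while the rest changed sign. In each fit without a library, the lone library of that stage is assumed to vary like those of the other stages.

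**Figure D1:**
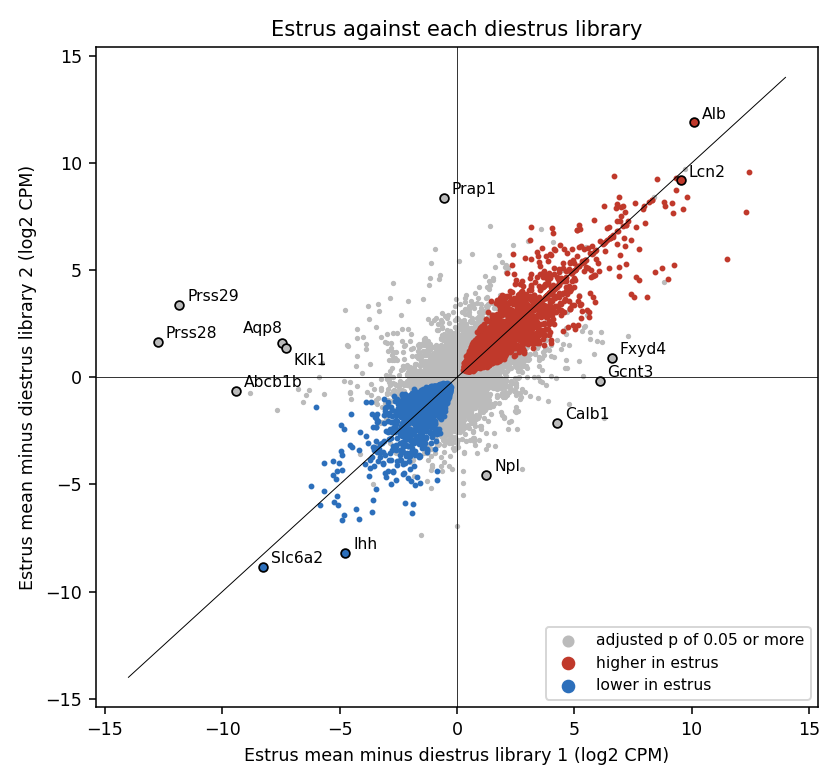
Mean log2 CPM of the 2 estrus libraries minus that of diestrus library 1 (x axis) and of diestrus library 2 (y axis) for each tested gene, coloured by the result of the test between the stages, with the labelled genes outlined in black and the diagonal drawn. Whereas Lcn2 lies near the diagonal, Prss28, Prss29 and Prap1 lie far above it and Calb1, Gcnt3, Fxyd4 and Npl far below it.

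Measured against each diestrus library alone, the estrus mean was over 2-fold higher than both at 1765 genes and over 2-fold lower than both at 923. At 1375 genes it was over 2-fold away from library 1 only and at 1875 from library 2 only. At 134 genes it lay over 2-fold away from both in opposite directions. List counts below are accompanied by those without a library where they differ much.

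Between the stages, 2511 genes were higher in estrus (13.9% of genes tested) and 1806 were lower (9.97%), by edgeR's quasi-likelihood test. In every one of these genes the 2 stages did not overlap, but they were selected by the same values, so this adds no support. Of the genes higher in estrus, 1666 differed over 2-fold, 847 over 4-fold and 330 over 16-fold. Of those lower in estrus, 932, 310 and 60 passed the same folds, so among called genes large differences lay more often on the estrus side. Genes with wide gaps between the diestrus libraries, such as Prss28 and Abcb1b, did not pass and are not in these counts. Most were protein coding, 2321 of those higher and 1710 of those lower. When diestrus library 1 was left out, 2669 genes were higher and 2504 lower in estrus. When library 2 was, 2414 were higher and 1970 lower. Leaving out an estrus library cost more: 900 genes were higher and 436 lower without estrus library 1, and 1176 and 476 without estrus library 2.

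**Figure D2:**
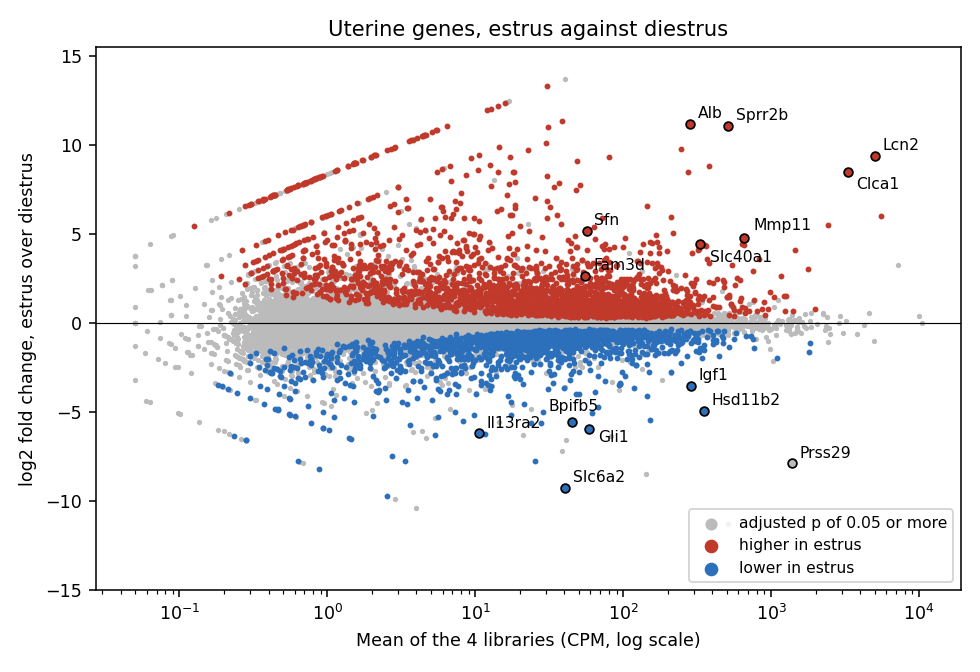
Log2 fold change of estrus over diestrus against the mean CPM of the 4 libraries (log scale) for each tested gene, with named genes outlined in black. Straight lines of points hold genes with few or no counts in a stage, whose fitted fold change has no fixed size. Lcn2 and Clca1 combine a high level with a log2 difference over 8, and Prss29, which did not pass the test, is grey.

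By the mean of the stages, 1808 of the 2511 genes higher in estrus peaked in estrus itself and 688 in proestrus. Their lowest stage was diestrus in 1193 and metestrus in 1099. Of the 1806 genes lower in estrus, 1374 were lowest in estrus and 407 in proestrus, while 862 peaked in diestrus and 822 in metestrus. The choice of genes fixed part of these counts. No gene higher in estrus could peak in diestrus or be lowest in estrus, and the reverse held for the lower genes. Proestrus and metestrus form a second pair of opposite stages that shares no library with this one, although all 4 stages share the fit. Of the genes higher in estrus, 1194 were also higher in proestrus than in metestrus. That was 47.6% of the estrus list and 64.3% of the 1857 genes of the proestrus list, where 10.3% of genes tested were called. Of the genes lower in estrus, 640 were also lower in proestrus, which was 35.4% of one list and 52.9% of the 1210 genes of the other, with 6.68% of genes tested called. Only 32 genes higher and 22 lower in estrus were called the opposite way in the other pair.

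Fam3d, a member of the FAM3 family of secreted cytokine-like proteins that is best known from the gut, was higher in estrus. It is annotated under its older symbol Oit1 (ENSMUSG00000021749, protein coding, GRCm38 chr14:8348937-8378754, minus strand). It had 95.5 and 95.9 CPM in estrus, against 23.8 and 6.71 CPM in diestrus. The estrus libraries were nearly equal, while diestrus library 1 held over 3 times the level of library 2. The log2 fold change was 2.65 ± 0.51 (adjusted p = 0.0140). Fam3b, known as a cytokine of pancreatic islets, had 15.1 and 8.36 CPM in estrus, against 0.09 and 0.151 CPM in diestrus (log2 fold change 6.55 ± 0.60, adjusted p = 0.00177). Fam3c, a regulator of epithelial plasticity also called ILEI, had 79.6 and 85.4 CPM in estrus, against 43.8 and 52.8 CPM in diestrus (0.77 ± 0.13, adjusted p = 0.0101). Fam3a did not pass the test, with 44.1 and 44.5 CPM in estrus, against 54.5 and 34.0 CPM in diestrus (0.00 ± 0.23, adjusted p = 0.999). So 3 of the 4 family members were called higher in estrus and none lower, where 13.9% of all genes tested were higher, and only the Fam3b call held in every alternative. Without estrus library 1 the adjusted p was 0.0646 for Fam3d and 0.0553 for Fam3c, and without estrus library 2 it was 0.0602 and 0.0630.

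The promoter of Fam3d is shown because the series asks about its regulation by estrogen. It is the RefSeq window from 250 bases before to 50 bases after the start of the gene (GRCm38.p6 chr14:8378714-8379013, minus strand), printed 5′ to 3′ along the gene. The capitals mark its only match to GGTCA, a single arm of the estrogen response element, which begins 25 bases before the start.
Fam3d (Oit1): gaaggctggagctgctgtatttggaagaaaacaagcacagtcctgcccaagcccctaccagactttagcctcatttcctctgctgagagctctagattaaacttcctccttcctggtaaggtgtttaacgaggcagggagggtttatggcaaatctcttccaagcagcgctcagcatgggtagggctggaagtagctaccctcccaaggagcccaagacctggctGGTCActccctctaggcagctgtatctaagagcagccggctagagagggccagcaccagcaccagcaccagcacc
GGTCA or its reverse TGACC stood in 43.6% of the 27025 gene promoters of the same length, in 46.3% of the 1852 matched genes higher in estrus and in 39.6% of the 1368 matched genes lower in estrus. The whole palindrome, GGTCA and TGACC with 3 bases between them, stood in 20 of the 27025 and in none of the called genes. A match is a description of the letters and not a site of binding.

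Across all 8 libraries, the genes whose log2 CPM followed that of Fam3d most closely were Sdcbp2, a syntenin-like adaptor, with a Pearson correlation of 0.999, and the signalling adaptor Grb7 with 0.994. Next came the glucose transporter Slc2a4, the methyl-DNA binding Mbd2 and the mitochondrial enzyme Idh3b, each with 0.993. They were picked for this likeness, and the 8 libraries share the stages, so the values only describe it. Sdcbp2 had 23.2 and 22.6 CPM in estrus, against 6.07 and 1.51 CPM in diestrus, with diestrus library 1 above library 2 as in Fam3d.

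Of 9 tested receptors of the steroid hormones and their relatives, 2 were lower and 1 was higher in estrus. Among all genes tested 9.97% were lower and 13.9% higher, so these small counts set the list little apart. Pgr, the progesterone receptor, had 69.0 and 60.7 CPM in estrus, against 237 and 196 CPM in diestrus (log2 fold change -1.74 ± 0.15, adjusted p = 0.00145). Pgrmc1, a membrane-bound haem protein that is linked to progesterone signalling, was the gene that rose, with 204 and 230 CPM in estrus, against 144 and 157 CPM in diestrus (0.53 ± 0.11, adjusted p = 0.0159). Esr1, the main estrogen receptor of the uterus, had 335 and 301 CPM in estrus, against 460 and 335 CPM in diestrus (-0.32 ± 0.17, adjusted p = 0.201). Without diestrus library 2, the log2 fold change was -0.54 for Esr1, -0.44 for the glucocorticoid receptor Nr3c1 and 1.83 for the membrane estrogen receptor Gper1. Without diestrus library 1 it was -0.11, -0.1 and -0.52, so Gper1 changed direction. Esr2 stayed under 0.6 CPM in each library of both stages. The Pgrmc1 call ended without estrus library 1 (adjusted p = 0.0565), estrus library 2 (0.0956) or metestrus library 1 (0.0508), whereas the Pgr call held in every alternative.

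Of 21 tested genes known to respond to estrogen in the uterus, 12 were higher in estrus and 2 were lower, where 13.9% and 9.97% of all genes tested were. The median log2 fold change of the list was 4.19, against -0.018 over all genes tested. Lcn2, a lipocalin that binds bacterial siderophores, had 11200 and 8860 CPM in estrus, against 13.1 and 16.9 CPM in diestrus (9.38 ± 0.59, adjusted p = 0.000751). Slc40a1, the iron exporter ferroportin, had 639 and 632 CPM in estrus, against 31.6 and 26.4 CPM in diestrus (4.45 ± 0.18, adjusted p = 0.000649). Both genes showed gaps far wider than the spread within a stage. Muc1, the membrane mucin of the luminal surface, had 604 and 777 CPM in estrus, against 18.6 and 48.7 CPM in diestrus (4.36 ± 0.46, adjusted p = 0.00265). Padi4, a peptidylarginine deiminase, had 38.4 and 37.1 CPM in estrus, against 11.6 and 7.11 CPM in diestrus (2.01 ± 0.25, adjusted p = 0.00387). Ltf, the iron-binding lactoferrin and a classical estrogen target of mouse uterus, had 11500 and 10100 CPM in estrus, against 24.9 and 313 CPM in diestrus (6.00 ± 1.18, adjusted p = 0.0147), with over 10 times more in diestrus library 2 than in library 1. Complement C3 showed the reverse order of the diestrus libraries, with 13700 and 12500 CPM in estrus, against 2510 and 179 CPM in diestrus. It did not pass the test (3.28 ± 1.09, adjusted p = 0.0718), though it did with diestrus library 1 or 2 left out (0.00193 and 0.0196), by DESeq2 (0.00508), by limma-voom (0.0417) and with no filter on low counts (0.0153).

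The Sprr2 genes encode small proline-rich proteins of cornified and mucosal epithelia. Sprr2b had 1680 and 358 CPM in estrus, against 0.045 and 0.908 CPM in diestrus (11.10 ± 1.55, adjusted p = 0.00535), and Sprr2f had 4920 and 4570 CPM, against 9.09 and 195 CPM (5.54 ± 1.34, adjusted p = 0.0281). These genes are near-identical copies, so the counting may have split reads among them and the level of a single member is uncertain. Igf1, the insulin-like growth factor that stromal cells release under estrogen, went against the rest of the group, with 44.3 and 47.5 CPM in estrus, against 442 and 611 CPM in diestrus (-3.52 ± 0.19, adjusted p = 0.000649). Greb1, an estrogen receptor cofactor, was the other gene that fell (-1.65 ± 0.43, adjusted p = 0.0362), and its adjusted p passed 0.05 in each of the 6 fits without an estrus, proestrus or metestrus library, from 0.0504 to 0.166. The adjusted p of Ltf was 0.0619 without estrus library 1 and 0.0525 without estrus library 2, and that of Sprr2f was 0.0947 and 0.0829. It was also 0.0597 and 0.0595 for Sprr2f without a metestrus library. The list had 6 higher genes in the fit without estrus library 1.

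**Figure D3:**
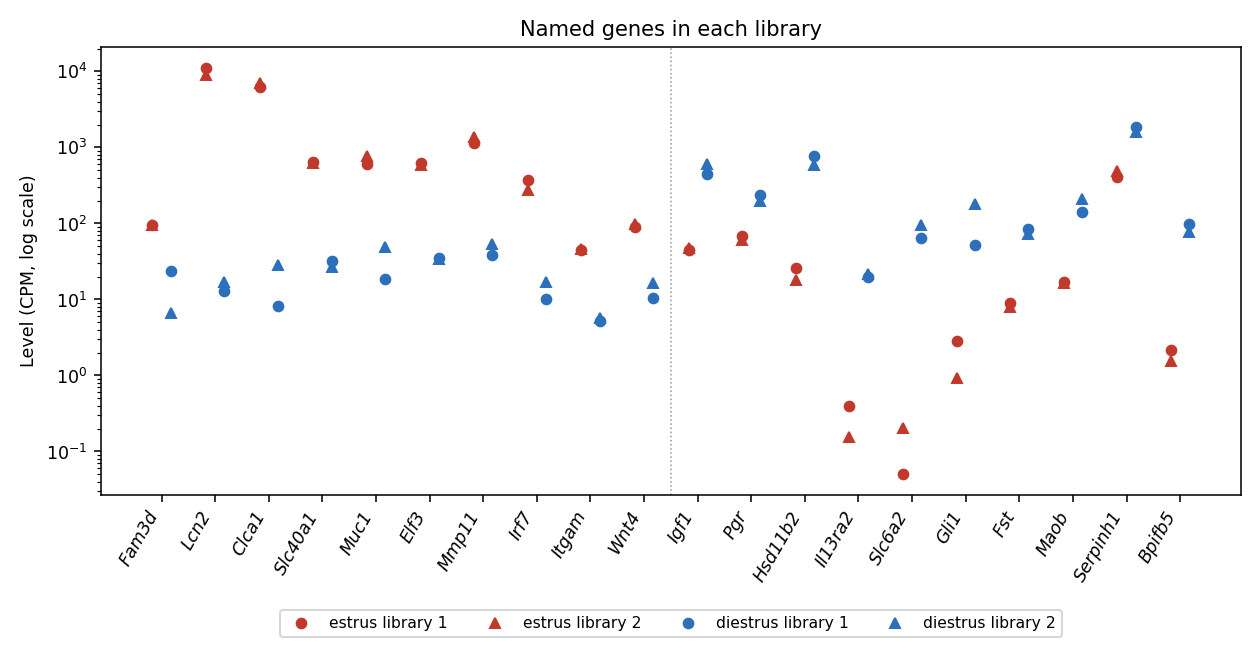
CPM (log scale) of 20 named genes in the 2 estrus libraries (red, left of each pair) and the 2 diestrus libraries (blue, right). The 10 genes left of the dotted line passed the test as higher in estrus and the 10 right of it as lower. The colours do not overlap in any gene, though all 20 were chosen from called genes.

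Genes that progesterone raises or that act in its hedgehog pathway were mostly lower in estrus. Of the 24 tested, 16 fell and 1 rose, where 9.97% of all genes tested were lower and 13.9% higher. Their median log2 fold change was -2.05. Ihh, the ligand, had 0.15 and 0.31 CPM in estrus, against 8.46 and 92.4 CPM in diestrus (-7.75 ± 1.39, adjusted p = 0.0114). Ihh did not pass by limma-voom (adjusted p = 0.165). Its target and effector Gli1 had 2.85 and 0.929 CPM in estrus, against 52.3 and 178 CPM in diestrus (-5.92 ± 0.79, adjusted p = 0.00468). The receptor Ptch1, itself a hedgehog target, fell by 2.24 ± 0.45 on the log2 scale (adjusted p = 0.0154). In all 3 of these genes diestrus library 2 exceeded library 1, yet estrus lay below both.

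The decoy receptor Il13ra2 was among the lowest, with 0.4 and 0.155 CPM in estrus, against 19.9 and 21.6 CPM in diestrus (-6.19 ± 0.46, adjusted p = 0.00115). Fst, the activin-binding follistatin, had 8.95 and 7.95 CPM in estrus, against 83.4 and 73.5 CPM in diestrus (-3.21 ± 0.39, adjusted p = 0.00343). Zbtb16, a zinc finger repressor induced by progesterone in stroma, had 4.95 and 7.07 CPM in estrus, against 132 and 56.9 CPM in diestrus (-3.97 ± 0.43, adjusted p = 0.00276). The receptor co-chaperone Fkbp5, a target of steroid receptors, had 14.4 and 18.1 CPM in estrus, against 98.0 and 53.8 CPM in diestrus (-2.23 ± 0.29, adjusted p = 0.00407). The homeobox genes that pattern the uterus and are needed for its decidual response were lower too. Hoxa11 had 48.0 and 43.4 CPM in estrus, against 183 and 184 CPM in diestrus (-2.01 ± 0.17, adjusted p = 0.00153), and Hoxa10 had 112 and 118 CPM, against 324 and 358 CPM (-1.57 ± 0.18, adjusted p = 0.00291). Wnt4, which acts in stromal decidualization and also in the epithelium, was the exception, with 91.1 and 98.5 CPM in estrus, against 10.3 and 16.5 CPM in diestrus (2.82 ± 0.25, adjusted p = 0.00160). The number of lower genes was 9 with estrus library 1 or 2 left out, and the calls of Ihh (0.0892 and 0.0735) and Ptch1 (0.0938 and 0.0937) were among those that ended. When diestrus library 1 was left out, 21 fell, and without library 2, 14 fell.

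Gene lists below are described by their counts and medians, set against the 13.9% of genes higher and 9.97% lower among all genes tested.

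**Figure D4:**
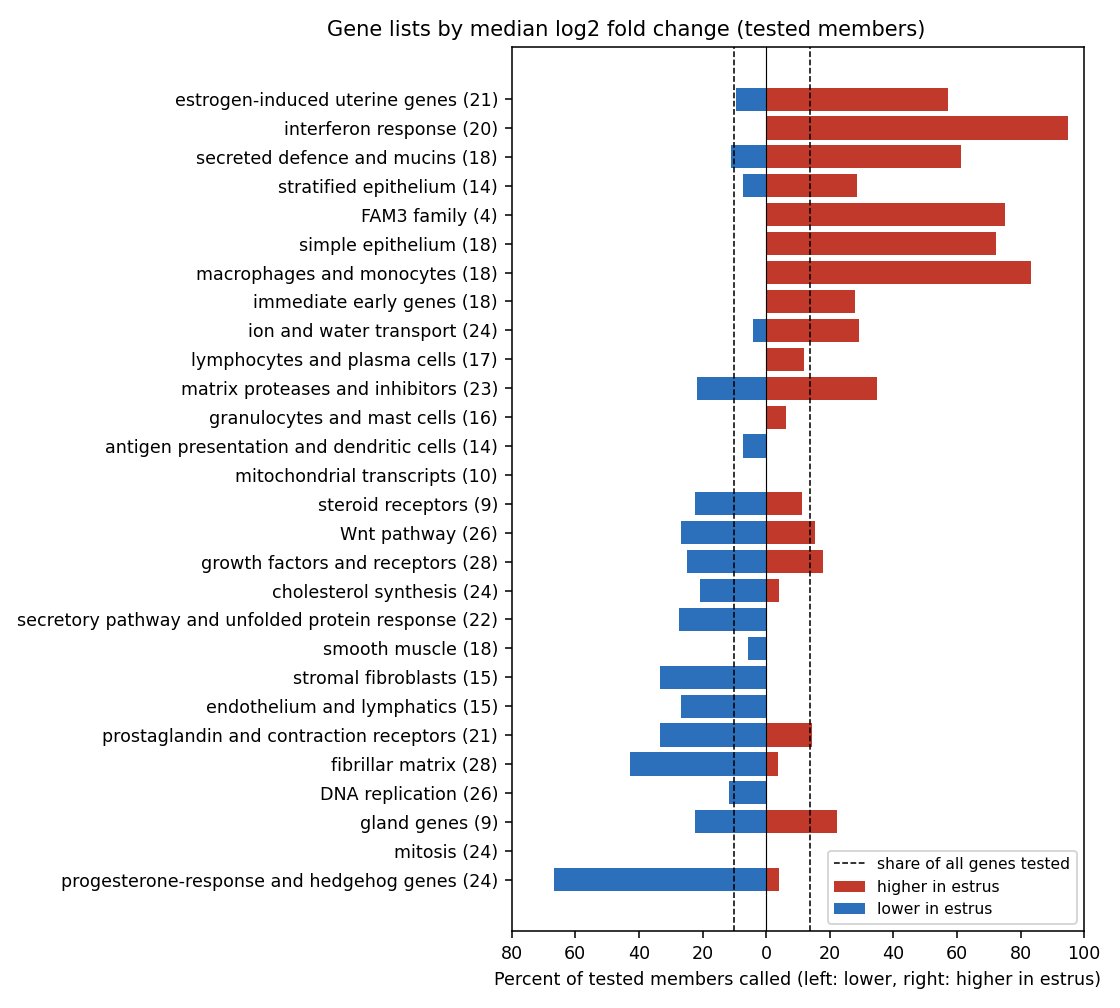
Percent of the tested members of each gene list that passed the test as higher (red, to the right) or lower in estrus (blue, to the left), with the lists ordered by median log2 fold change and the number tested in parentheses. Dashed lines mark the share of all genes tested; 19 of 20 interferon genes and 15 of 18 macrophage genes were higher, and 16 of 24 progesterone-response and hedgehog genes were lower.

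Most genes of simple epithelium were higher in estrus. Of 18, 13 were called higher and none lower, with log2 fold changes from -1.75 to 4.14 over the list, and their CPM summed to 5681 and 4876 in estrus, against 1356 and 2044 in diestrus. Elf3, an epithelial transcription factor of the ETS family, had 622 and 592 CPM in estrus, against 34.7 and 34.1 CPM in diestrus (4.14 ± 0.23, adjusted p = 0.000649). The tight junction protein Cldn7 had 307 and 251 CPM in estrus, against 36.7 and 59.6 CPM in diestrus (2.53 ± 0.25, adjusted p = 0.00202). The adhesion glycoprotein Epcam rose by 1.75 ± 0.19 on the log2 scale (adjusted p = 0.00276), and keratin Krt8 by 2.14 ± 0.30 (0.00551). Krt18, its partner in simple epithelia, did not pass, with 283 and 246 CPM in estrus, against 257 and 133 CPM in diestrus (adjusted p = 0.292). Krt18 rose without diestrus library 1 (0.00476). Leaving out estrus library 1 or 2 lowered the higher count to 5 or 7, and leaving out a metestrus library lowered it to 8. Without diestrus library 1, 1 member was called lower.

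Genes of stratified epithelium split. Sfn, the 14-3-3 protein stratifin, had 107 and 113 CPM in estrus, against 3.1 and 2.92 CPM in diestrus (5.18 ± 0.25, adjusted p = 0.000649), and the serpin Serpinb5 had 11.7 and 10.8 CPM, against 0.36 and 0.353 CPM (4.96 ± 0.27, adjusted p = 0.000649). Sprr1a, a cornified envelope precursor, also rose (4.70 ± 0.64, adjusted p = 0.00503). The basal keratins that define a stratified layer were at or near 0: Krt5 had 0.05 and 0.206 CPM in estrus, against 0 and 0.0504 CPM in diestrus, and Krt14 had 0.15 and 0 CPM, against 0 and 0 CPM. In all, 4 of the 14 tested members were higher and 1 lower, and 6 of the 20 listed did not pass the filter on low counts. No member was called lower without estrus library 1 or 2, and 3 were without diestrus library 1.

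Gland genes gave no common direction, with 2 of 9 higher and 2 lower. Foxa2, the transcription factor that defines uterine glands, had 8.15 and 5.37 CPM in estrus, against 14.3 and 17.3 CPM in diestrus (-1.23 ± 0.27, adjusted p = 0.0205). Lif, the cytokine of implantation that glands secrete, had 39.8 and 14.2 CPM in estrus, against 4.68 and 2.98 CPM in diestrus (2.81 ± 0.56, adjusted p = 0.0158). The Foxa2 call ended without estrus library 2 (0.0965) and that of Lif without estrus library 1 (0.0629). Without diestrus library 1 or 2 the lower genes numbered 3 or 4. Without estrus library 1 no gland gene was called higher and 1 lower, and without library 2, 1 was higher and none lower. A single gland gene was lower in each fit without a proestrus or metestrus library. The list summed to 133.6 and 141.6 CPM in estrus, against 7774 and 243.2 CPM in diestrus, a sum dominated by Prss28 and Prss29 in diestrus library 1.

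Interferon-response genes had the largest share of called members among the lists. Of 20, 19 were higher in estrus and none lower, with a median log2 fold change of 3.26 and a range of 1.21 to 4.57. Their sum was 2887 and 1988 CPM in estrus, against 352.9 and 341 CPM in diestrus. Irf7, the transcription factor that amplifies type I interferon, had 372 and 272 CPM in estrus, against 10 and 17 CPM in diestrus (4.57 ± 0.49, adjusted p = 0.00275). Mx1, a dynamin-like GTPase that blocks viruses, had 29.4 and 19.8 CPM in estrus, against 1.08 and 1.51 CPM in diestrus (4.25 ± 0.28, adjusted p = 0.000823). Oas2, a sensor of double-stranded RNA, had 160 and 114 CPM in estrus, against 5.26 and 8.47 CPM in diestrus (4.32 ± 0.35, adjusted p = 0.00129). Ifit2, which binds foreign RNA, had 67.1 and 76.2 CPM in estrus, against 11.0 and 12.7 CPM in diestrus (2.60 ± 0.17, adjusted p = 0.000823). Cxcl10, a chemokine for T cells, was the member that did not pass (2.79 ± 0.96, adjusted p = 0.0779), with 8.85 and 10.5 CPM in estrus, against 1.12 and 1.66 CPM in diestrus. Cxcl10 passed without proestrus library 1 or 2 (0.0358 and 0.0345), by DESeq2 (0.0110), with no filter (0.0257) and with the 4 libraries alone (0.0244). The count lay between 17 and 20 in every alternative tried. Several of these genes were also high in proestrus: Irf7 had 265 and 130 CPM there, Mx1 28.6 and 28.1 CPM and Oas2 158 and 117 CPM.

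Promoters of 3 genes of this group are shown because their members moved together. The windows are those of RefSeq (GRCm38.p6), from 250 bases before to 50 after the start, at chr4:156200769-156201068 on the minus strand for Isg15, chr19:34640639-34640938 on the plus strand for Ifit1 and chr19:34583279-34583578 on the plus strand for Ifit3. Capitals mark each match to the core of the interferon-stimulated response element, read as 2 copies of GAAA with any 2 bases between them, or 2 of TTTC on the other strand.
Isg15: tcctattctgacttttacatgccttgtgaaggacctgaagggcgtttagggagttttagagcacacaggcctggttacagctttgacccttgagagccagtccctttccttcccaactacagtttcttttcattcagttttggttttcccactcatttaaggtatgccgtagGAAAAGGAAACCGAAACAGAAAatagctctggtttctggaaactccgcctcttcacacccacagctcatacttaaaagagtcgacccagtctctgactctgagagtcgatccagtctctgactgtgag
Ifit1: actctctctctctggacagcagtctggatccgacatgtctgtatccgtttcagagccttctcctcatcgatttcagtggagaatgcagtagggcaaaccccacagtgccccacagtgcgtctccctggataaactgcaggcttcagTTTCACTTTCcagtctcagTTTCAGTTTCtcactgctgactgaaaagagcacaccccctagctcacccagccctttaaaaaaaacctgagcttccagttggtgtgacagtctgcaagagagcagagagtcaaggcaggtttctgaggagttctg
Ifit3: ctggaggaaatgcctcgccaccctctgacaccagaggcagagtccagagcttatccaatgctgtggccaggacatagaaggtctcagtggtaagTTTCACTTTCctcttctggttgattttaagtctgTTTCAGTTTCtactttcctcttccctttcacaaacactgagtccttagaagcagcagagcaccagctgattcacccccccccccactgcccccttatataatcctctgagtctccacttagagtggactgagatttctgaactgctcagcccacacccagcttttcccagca
Isg15, a ubiquitin-like modifier, had 3 overlapping matches that begin 78, 72 and 66 bases before the start. Its level was 88.0 and 51.5 CPM in estrus, against 5.13 and 7.87 CPM in diestrus (3.43 ± 0.44, adjusted p = 0.00400). Ifit1, which binds uncapped viral RNA, had matches 104 and 85 bases before the start, and 127 and 89.1 CPM in estrus, against 4.23 and 8.32 CPM in diestrus (4.11 ± 0.53, adjusted p = 0.00411). Ifit3, its partner protein, had matches 156 and 122 bases before the start, and 192 and 135 CPM in estrus, against 10.8 and 6.3 CPM in diestrus (4.26 ± 0.69, adjusted p = 0.00857). Among the 14 genes of the list with a promoter in the table, 9 held the core (64.3%), against 3.99% of all 27025 genes. The share was 6.59% among the 1852 matched genes higher in estrus and 2.34% among the 1368 matched genes lower in estrus. The list was chosen as genes known to respond to interferon, many of which are known for this element, so the share says nothing particular about estrus.

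Macrophage and monocyte genes were higher in estrus in 15 of 18 cases and lower in none, with a median log2 fold change of 1.45. Summed, they reached 2925 and 3110 CPM in estrus, against 862.4 and 1228 CPM in diestrus. The adhesion receptor Itgam (CD11b) had 45.2 and 46.7 CPM in estrus, against 5.13 and 5.75 CPM in diestrus (3.08 ± 0.37, adjusted p = 0.00349). Adgre1 (F4/80), the classical macrophage marker, had 120 and 111 CPM in estrus, against 35.2 and 48.9 CPM in diestrus (1.46 ± 0.19, adjusted p = 0.00399). The Fc receptor Fcgr1 rose by 3.24 ± 0.42 on the log2 scale (adjusted p = 0.00414), and the complement subunits C1qa, C1qb and C1qc by 1.40 ± 0.19, 1.43 ± 0.20 and 1.57 ± 0.22 (adjusted p = 0.00534, 0.00503 and 0.00560). The 3 members that did not pass were Cd163, Lyz2 and Trem2, with log2 fold changes of 0.52, 0.51 and 1.40, and Trem2 passed without diestrus library 2 (0.0322). The number of higher members lay between 11 and 16 in every alternative.

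Other leukocyte lists did not move alike. Of 14 genes of antigen presentation and dendritic cells, none was higher and only the dendritic cell factor Zbtb46 was lower (-1.16 ± 0.16, adjusted p = 0.00550). Without diestrus library 2, 1 of the 14 was higher. Of 16 tested genes of granulocytes and mast cells, 1 was higher, the neutrophil surface protein Ly6g, with 1.45 and 1.5 CPM in estrus, against 0.135 and 0.202 CPM in diestrus (3.10 ± 0.54, adjusted p = 0.0103). The neutrophil proteins S100a8 and S100a9 stayed under 6 CPM in all 4 libraries. Of 17 tested lymphocyte and plasma cell genes, 2 were higher, Cd79b of B cells (2.19 ± 0.26, adjusted p = 0.00329) and the immunoglobulin chain Ighm (1.24 ± 0.23, adjusted p = 0.0126). Counts depended on the diestrus library. Without library 1, 6 lymphocyte genes were higher, and without library 2, 5 granulocyte and mast cell genes were higher and 5 lower. The Ly6g and Ighm calls ended without estrus library 1 (0.0503 and 0.0735).

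Genes of the fibrillar matrix were lower in estrus in 12 of 28 cases and higher in 1, with a median log2 fold change of -0.99. Serpinh1, the chaperone of collagen folding, had 413 and 493 CPM in estrus, against 1870 and 1620 CPM in diestrus (-1.94 ± 0.19, adjusted p = 0.00202). Elastin, Eln, had 41.9 and 36.9 CPM in estrus, against 268 and 138 CPM in diestrus (-2.37 ± 0.31, adjusted p = 0.00436). The collagen VI chains Col6a2 and Col6a3 fell by 1.64 ± 0.23 and 1.84 ± 0.28 on the log2 scale (adjusted p = 0.00533 and 0.00666). The main fibrillar collagens did not pass: Col1a1 had 2040 and 1080 CPM in estrus, against 3380 and 3190 CPM in diestrus (-1.08 ± 0.33, adjusted p = 0.0572), and Col3a1 had 4180 and 2490 CPM, against 5990 and 7180 CPM (-0.98 ± 0.32, adjusted p = 0.0670). Lox, the lysyl oxidase that crosslinks collagen and elastin, was the single member that rose, with 554 and 506 CPM in estrus, against 124 and 62.6 CPM in diestrus (2.50 ± 0.31, adjusted p = 0.00367). Col1a1 fell without estrus library 1 (0.0423) and by DESeq2 (0.00403), limma-voom (0.0429) or with no filter on low counts (0.0149). Col3a1 fell by DESeq2 (0.00730) and with no filter (0.0208). With diestrus library 1 left out, 3 members were higher.

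Matrix proteases and their inhibitors went both ways, with 8 of 23 higher and 5 lower. Mmp11, stromelysin 3 of stromal cells, had 1140 and 1380 CPM in estrus, against 38.0 and 53.8 CPM in diestrus (4.78 ± 0.29, adjusted p = 0.000710). Mmp9, a gelatinase that leukocytes carry, had 68.4 and 65.7 CPM in estrus, against 14.6 and 22.8 CPM in diestrus (1.84 ± 0.22, adjusted p = 0.00346). Adamts5, an aggrecanase, had 80.9 and 97.5 CPM in estrus, against 36.2 and 31.8 CPM in diestrus (1.39 ± 0.19, adjusted p = 0.00524). With estrus library 1 or 2 left out, the higher members numbered 4 or 5 and no member was called lower. Without a metestrus library, 3 were lower.

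Among genes of the secretory pathway and the unfolded protein response, 6 of 22 fell and none rose. DESeq2 called 13 lower, and 13 had an unadjusted p under 0.05. Fkbp14, a prolyl isomerase for collagen in the endoplasmic reticulum, stood out with 5.55 and 6.19 CPM in estrus, against 58.8 and 64.0 CPM in diestrus (-3.38 ± 0.13, adjusted p = 0.000649). Hspa5, the central chaperone BiP, did not pass, with 656 and 702 CPM in estrus, against 1500 and 830 CPM in diestrus (adjusted p = 0.0868), though it fell without diestrus library 2 (0.00535), by DESeq2 (0.0225) and with no filter (0.0414). The lower count was 14 without diestrus library 2 and 4 without library 1, 2 with estrus library 1 or 2 left out, and 3 in each fit without a proestrus or metestrus library.

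Markers of the other uterine cell types were lower or did not pass. Of 15 stromal fibroblast genes 5 were lower and none higher. Aldh1a2, which makes retinoic acid in the stroma, had 86.3 and 87.5 CPM in estrus, against 145 and 184 CPM in diestrus (-0.92 ± 0.14, adjusted p = 0.00686). Of 15 endothelial and lymphatic genes 4 were lower, among them the VEGF receptor Kdr, with 45.8 and 51.5 CPM in estrus, against 108 and 93.2 CPM in diestrus (-1.05 ± 0.16, adjusted p = 0.00653). The calls of Aldh1a2 and Kdr ended without estrus library 1 (0.0560 and 0.0522). In the fits without estrus library 1 or 2, 1 stromal gene and 0 or 2 endothelial genes were lower, and without a metestrus library 2 stromal genes. Without diestrus library 1, 2 stromal genes were higher, and without library 2, 8 endothelial genes were lower. Of 18 smooth muscle genes 1 was lower, the small heat shock protein Hspb6 (-0.85 ± 0.16, adjusted p = 0.0139), a call lost without estrus library 1 (0.0877) or 2 (0.0641). The smooth muscle sum was 16840 and 14770 CPM in estrus, against 27990 and 12210 CPM in diestrus, and 11 of the 18 genes were over 2-fold higher in diestrus library 1 than in library 2. Without diestrus library 2, 10 smooth muscle genes were lower in estrus, and without library 1, 4 were higher. The part of muscle or stroma content in the other results was not tested.

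Wnt ligands and their antagonists divided, with 4 of 26 tested genes higher and 7 lower. Besides Wnt4, Rspo3, a secreted amplifier of Wnt signals, rose, with 161 and 138 CPM in estrus, against 47.7 and 44.3 CPM in diestrus (1.70 ± 0.19, adjusted p = 0.00278). The antagonist Sfrp1 had 16.4 and 19.4 CPM in estrus, against 73.9 and 61.5 CPM in diestrus (-1.92 ± 0.22, adjusted p = 0.00292). Lgr5, the R-spondin receptor of epithelial progenitors, had 0.35 and 1.24 CPM in estrus, against 5.4 and 5.35 CPM in diestrus (-2.75 ± 0.62, adjusted p = 0.0228). Leaving out estrus library 1 gave 2 higher and 1 lower genes, leaving out estrus library 2 gave 3 and 2, and leaving out a metestrus library gave 2 and 2. The Lgr5 call ended without estrus library 1 (0.0922) and without metestrus library 1 or 2 (0.0546 and 0.0543).

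Of 28 tested growth factors and receptors, 5 were higher and 7 lower. The ligands of the EGF family that rose were Nrg1, with 50.7 and 45.0 CPM in estrus, against 10.9 and 7.77 CPM in diestrus (2.36 ± 0.25, adjusted p = 0.00262), and Btc, with 6.15 and 5.42 CPM, against 1.75 and 1.61 CPM (1.78 ± 0.28, adjusted p = 0.00728). The receptor Egfr fell, with 54.0 and 48.9 CPM in estrus, against 89.0 and 97.7 CPM in diestrus (-0.86 ± 0.13, adjusted p = 0.00674). Ngfr, the low-affinity neurotrophin receptor, had 7.05 and 2.99 CPM in estrus, against 161 and 97.7 CPM in diestrus (-4.68 ± 0.44, adjusted p = 0.00187). The Egfr call ended without estrus library 2 (0.0505). The list held 2 higher and 3 lower genes without estrus library 1, 3 and 2 without estrus library 2, and 3 lower genes without a metestrus library.

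Secreted defence proteins and mucins rose in 11 of 18 cases and fell in 2. Pigr, which carries immunoglobulin A across epithelia, had 2920 and 2560 CPM in estrus, against 217 and 94.3 CPM in diestrus (4.14 ± 0.47, adjusted p = 0.00295). Complement factor B, Cfb, had 60.5 and 59.7 CPM in estrus, against 0.18 and 0.857 CPM in diestrus (6.87 ± 0.66, adjusted p = 0.00195). The lipopolysaccharide co-receptor Cd14 had 774 and 580 CPM in estrus, against 33.1 and 76.6 CPM in diestrus (3.63 ± 0.49, adjusted p = 0.00482). Bpifb5, of a family of lipid-binding secreted proteins, went the other way, with 2.15 and 1.55 CPM in estrus, against 98.9 and 76.7 CPM in diestrus (-5.56 ± 0.24, adjusted p = 0.000649). Only 1 member was called lower in the fits that left out an estrus library, proestrus library 2 or a metestrus library.

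Among 24 tested genes of ion and water transport, 7 were higher and 1 lower. Clca1, a secreted regulator of chloride channels and mucus, had 6150 and 7120 CPM in estrus, against 8.19 and 28.4 CPM in diestrus (8.50 ± 0.80, adjusted p = 0.00187). The chloride channel Cftr had 65.6 and 56.0 CPM in estrus, against 4.23 and 12.5 CPM in diestrus (2.87 ± 0.45, adjusted p = 0.00733). Ano1, a calcium-activated chloride channel, had 49.6 and 57.6 CPM in estrus, against 123 and 158 CPM in diestrus (-1.39 ± 0.21, adjusted p = 0.00653; 0.0588 without estrus library 1). The list had 3 higher genes without estrus library 1 or 2, 4 lower genes without diestrus library 1 and 5 without diestrus library 2.

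For prostaglandins and contraction, 3 of 21 genes were higher and 7 lower. The prostaglandin E receptor Ptger3 had 14.6 and 18.4 CPM in estrus, against 113 and 92.9 CPM in diestrus (-2.64 ± 0.19, adjusted p = 0.00107), and its relative Ptger4 fell by 0.71 ± 0.10 on the log2 scale (adjusted p = 0.00596). Maob, which breaks down amines, had 17 and 16.3 CPM in estrus, against 140 and 207 CPM in diestrus (-3.38 ± 0.25, adjusted p = 0.00109). Hpgd, which inactivates prostaglandins, had 93.2 and 108 CPM in estrus, against 49.1 and 44.9 CPM in diestrus (1.10 ± 0.14, adjusted p = 0.00399). The oxytocin receptor Oxtr did not pass, with 87.1 and 43.2 CPM in estrus, against 81.6 and 16.4 CPM in diestrus (adjusted p = 0.702), and rose without diestrus library 1 (0.0290). There were 1 higher and 4 lower genes without estrus library 1, and 3 lower without estrus library 2. A fit without diestrus library 1 gave 5 higher.

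Cell cycle genes differed between the diestrus libraries, and many mitosis genes between the estrus libraries too. None of 24 mitosis genes passed edgeR's test between the stages, although their median log2 fold change was -1.38. At an unadjusted p under 0.05, 2 were lower, limma-voom called 0 and DESeq2 8, all lower. All 24 were over 2-fold higher in diestrus library 2 than in library 1, and 13 were over 2-fold apart between the estrus libraries. The list summed to 255.3 and 128.9 CPM in estrus, against 173 and 688.6 CPM in diestrus. Mki67, the proliferation antigen, had 37.1 and 13.3 CPM in estrus, against 20.4 and 66.2 CPM in diestrus. Without diestrus library 1, 17 of the mitosis genes were lower in estrus. Without diestrus library 2, none was lower and 1 was higher. DNA replication genes were lower in 3 of 26 cases: the polymerase subunits Pole (-1.90 ± 0.41, adjusted p = 0.0194) and Pola1 (-1.39 ± 0.36, adjusted p = 0.0349), and the helicase loader Cdc45 (-1.44 ± 0.41, adjusted p = 0.0446). Replication genes called lower numbered 11 by DESeq2, 9 with no filter on low counts, 19 without diestrus library 1 and 1 without library 2. No replication gene was called without estrus library 1 or 2, where the adjusted p of Pole was 0.0750 and 0.112. Leaving out a metestrus library left 1, without Cdc45 (0.0809 and 0.0813) and Pola1 (0.0588 and 0.0591).

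Of 24 cholesterol genes 5 were lower and 1 higher, with Acat2 at 15.1 and 12.4 CPM in estrus, against 20.1 and 24.5 CPM in diestrus (-0.69 ± 0.16, adjusted p = 0.0228). Lss, which closes the sterol ring, fell by 0.79 ± 0.18 on the log2 scale (adjusted p = 0.0237), and both calls ended without estrus library 1 (0.0619 and 0.0751) or 2 (0.122 and 0.125). Without estrus library 2, 2 cholesterol genes were higher and none lower, and without library 1, none was higher and 3 lower. With a metestrus library left out none was higher and 2 lower, and with diestrus library 2 left out none and 3. Without diestrus library 1, 2 were higher, and without proestrus library 1 none was. Of 18 immediate early genes 5 were higher. Fos had 153 and 61.0 CPM in estrus, against 10.8 and 12 CPM in diestrus (3.23 ± 0.43, adjusted p = 0.00445), and Junb had 186 and 113 CPM, against 33.5 and 33.0 CPM (2.17 ± 0.24, adjusted p = 0.00276). Jun, the partner of Fos, had 230 and 161 CPM in estrus, against 209 and 170 CPM in diestrus (adjusted p = 0.924). The count was 2 without estrus library 1 and 3 without diestrus library 2 or either metestrus library.

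Among the 12 largest rises by the naming rule were 8 transcripts known from liver: Apoa1, Bhmt, Mup3, Fabp1, Alb, Mup20, Plg and Cyp3a11. Albumin, Alb, had 650 and 477 CPM in estrus, against 0.405 and 0.0504 CPM in diestrus (11.18 ± 2.24, adjusted p = 0.0157). It had 82.7 and 0.943 CPM in proestrus and 0 and 0.0428 CPM in metestrus, so proestrus library 1 also stood above the rest. Apolipoprotein Apoa2 had 46.4 and 44.1 CPM in estrus, against 0.045 and 0.0504 CPM in diestrus (9.72 ± 1.69, adjusted p = 0.0103), and its call held in every alternative. Where diestrus held no count, the fold is a bound against 3 counts over its 2 libraries, which covers counting error only. Apolipoprotein Apoa1, with 66.6 and 56.3 CPM in estrus, was at least 862-fold higher. Bhmt, a betaine methyltransferase, was at least 447-fold higher, and the fatty acid carrier Fabp1 at least 337-fold. The bound for the major urinary proteins was 400-fold for Mup3 and 180-fold for Mup20, genes of a family of near-identical copies whose counts may be split. The 9 genes of a liver list summed to 896.8 and 694.0 CPM in estrus, against 3.509 and 3.732 CPM in diestrus, and 8 passed the test as higher. The sum was 121 and 1.737 CPM in proestrus and 0.2678 and 0.8983 CPM in metestrus. In the fits without estrus library 1 or 2, only 1 of the 9 was called, Alb no longer among them (adjusted p = 0.0613 and 0.0519). Without either diestrus library 6 were called. The Apoa1 call ended in each of the fits without an estrus, metestrus or diestrus library, with an adjusted p of 0.0635 to 0.156. Those of Bhmt (0.107 and 0.0841), Fabp1 (0.124 and 0.114), Mup3 (0.0689 and 0.0552), Mup20 (0.137 and 0.118), Plg (0.0784 and 0.0697) and Cyp3a11 (0.1 and 0.0822) ended without estrus library 1 or 2. The origin of these transcripts was not tested. By limma-voom the Alb call ended (adjusted p = 0.0959). By DESeq2 those of Fabp1 (0.0588), Mup20 (0.0872) and Cyp3a11 (0.0964) did. The other 4 of the 12 were Sprr2i, Sprr2d, Sprr2b and the interferon-induced Ifi44l. Ifi44l had 63.1 and 60.4 CPM in estrus, against 0 and 0.0504 CPM in diestrus, but 58.5 and 0 CPM in proestrus. By limma-voom, Sprr2i (adjusted p = 0.129), Sprr2d (0.213) and Ifi44l (0.205) did not pass. The Ifi44l call ended without any estrus, metestrus or diestrus library (0.0800 to 0.118), and that of Sprr2i without estrus library 1 (0.0549) or a metestrus library (0.0513 and 0.0512).

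The largest falls were of genes at low levels in estrus. Slc6a2, the noradrenaline transporter, had 0.05 and 0.206 CPM in estrus, against 64.6 and 95.9 CPM in diestrus (-9.24 ± 0.73, adjusted p = 0.00129). Has2, the hyaluronan synthase, had 0.15 and 0.103 CPM in estrus, against 7.38 and 13.6 CPM in diestrus (-6.30 ± 0.52, adjusted p = 0.00139). Kcnd2, a voltage-gated potassium channel, had 0.55 and 0.155 CPM in estrus, against 14 and 18.3 CPM in diestrus (-5.49 ± 0.55, adjusted p = 0.00233). Lrp2, the endocytic receptor megalin, had 1.1 and 1.14 CPM in estrus, against 14.7 and 94.4 CPM in diestrus (-5.60 ± 1.01, adjusted p = 0.0116). The sugar transporter Slc5a11 had 0.8 and 1.08 CPM in estrus, against 20.4 and 73.0 CPM in diestrus (-5.62 ± 0.84, adjusted p = 0.00649). Ankfn1 had no count in estrus and 6.97 and 3.18 CPM in diestrus, and was at least 66.6-fold lower. Fam189a1 and the phospholipase Pla2g10 fell as well, beside Ihh, Il13ra2, Gli1 and Bpifb5. By limma-voom, Lrp2 (adjusted p = 0.0874) and Pla2g10 (0.233) did not pass. The calls of Lrp2 (0.0875 and 0.0786) and Pla2g10 (0.182 and 0.184) ended without estrus library 1 or 2, and that of Slc5a11 without library 1 (0.0609). Pla2g10, at 0.72 and 13.4 CPM in the diestrus libraries, also lost its call without a proestrus or metestrus library (0.0604 to 0.0673) and without diestrus library 2 (0.142).

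Lists of further tissues were short and differed in their share of calls. By edgeR, none of 4 tested ovary genes, 8 mesothelium genes and 10 mitochondrial transcripts passed, with a median log2 fold change of 0.02 in the last. At an unadjusted p under 0.05, 1 ovary and 1 mesothelium gene were lower and 1 mitochondrial transcript was higher. DESeq2 called 0, 1 and 1 of them and limma-voom 0, 0 and 1. Of 6 tested oviduct and cilia genes 2 were lower, of 8 fat genes 1 was higher, of 4 skeletal muscle genes 2 were lower, and of 4 red blood cell genes 1 was higher. Of 7 nerve and glia genes 2 were higher and 1 lower. Leaving out single libraries moved these small counts to between 0 and 3. Among them, Mbp, a myelin protein also made by other cells, had 53.5 and 61.1 CPM in estrus, against 19.5 and 14.9 CPM in diestrus (1.74 ± 0.17, adjusted p = 0.00204).

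Estrus against diestrus was then set against proestrus against metestrus by a test of the difference between the 2 log2 fold changes, from the same fit. The signed difference passed the test above 0 at 39 genes (0.215% of genes tested) and below 0 at 34 (0.188%), together 0.403% of genes tested. Gpr176, an orphan receptor, had 10.4 and 12.9 CPM in estrus, against 1.71 and 1.36 CPM in diestrus, and its 2 fold changes differed by 5.87 ± 0.41 (adjusted p = 0.0125). It went the other way in the second pair, with 0.256 and 0.298 CPM in proestrus, against 2.28 and 2.1 CPM in metestrus. Gpnmb, a glycoprotein of phagocytic macrophages, did the same: it had 111 and 157 CPM in estrus, against 14.4 and 27.7 CPM in diestrus, and 1.44 and 2.03 CPM in proestrus, against 9.02 and 10.6 CPM in metestrus (difference 5.16 ± 0.52, adjusted p = 0.0245). Mmp11 peaked in estrus alone, with 46.7 and 49.3 CPM in proestrus and 36.7 and 23.9 CPM in metestrus (difference 4.12 ± 0.37, adjusted p = 0.0161), as did the matricellular protein Ccn3 (4.19 ± 0.43, adjusted p = 0.0257). Eef1a2 and the gap junction protein Gjb2 were the others among the largest positive differences.

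Among the called differences below 0 were genes with their lowest level in estrus. Hsd11b2, which inactivates glucocorticoids, had 26.1 and 18.3 CPM in estrus, against 771 and 579 CPM in diestrus (-4.93 ± 0.29, adjusted p = 0.000710). It had 576 and 788 CPM in proestrus, against 632 and 529 CPM in metestrus (difference -5.16 ± 0.37, adjusted p = 0.0132). Igf1 had 415 and 400 CPM in proestrus, against 467 and 549 CPM in metestrus, and differed likewise (-3.20 ± 0.25, adjusted p = 0.0149). Ngfr (-5.17 ± 0.57), Has2 (-5.72 ± 0.64), Minar1 (-6.10 ± 0.68) and Gpr83 (-7.07 ± 0.79) shared an adjusted p of 0.0283, and Il13ra2 differed by -7.15 ± 0.59 (0.0152). For Fam3d the difference did not pass the test (-0.74 ± 0.69, adjusted p = 0.676), nor did it for Irf7 (0.93 ± 0.61, adjusted p = 0.535). These counts depended on single libraries. Leaving out diestrus library 1 gave 212 and 226, and without library 2, 522 and 556. With estrus library 2 or a metestrus library left out they were 0 and 0 by edgeR, where 1158 and 946, 1084 and 939, and 1068 and 776 genes had an unadjusted p under 0.05. Leaving out estrus library 1 gave 5 and 6, and leaving out a proestrus library 3 and 3.

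**Figure D5:**
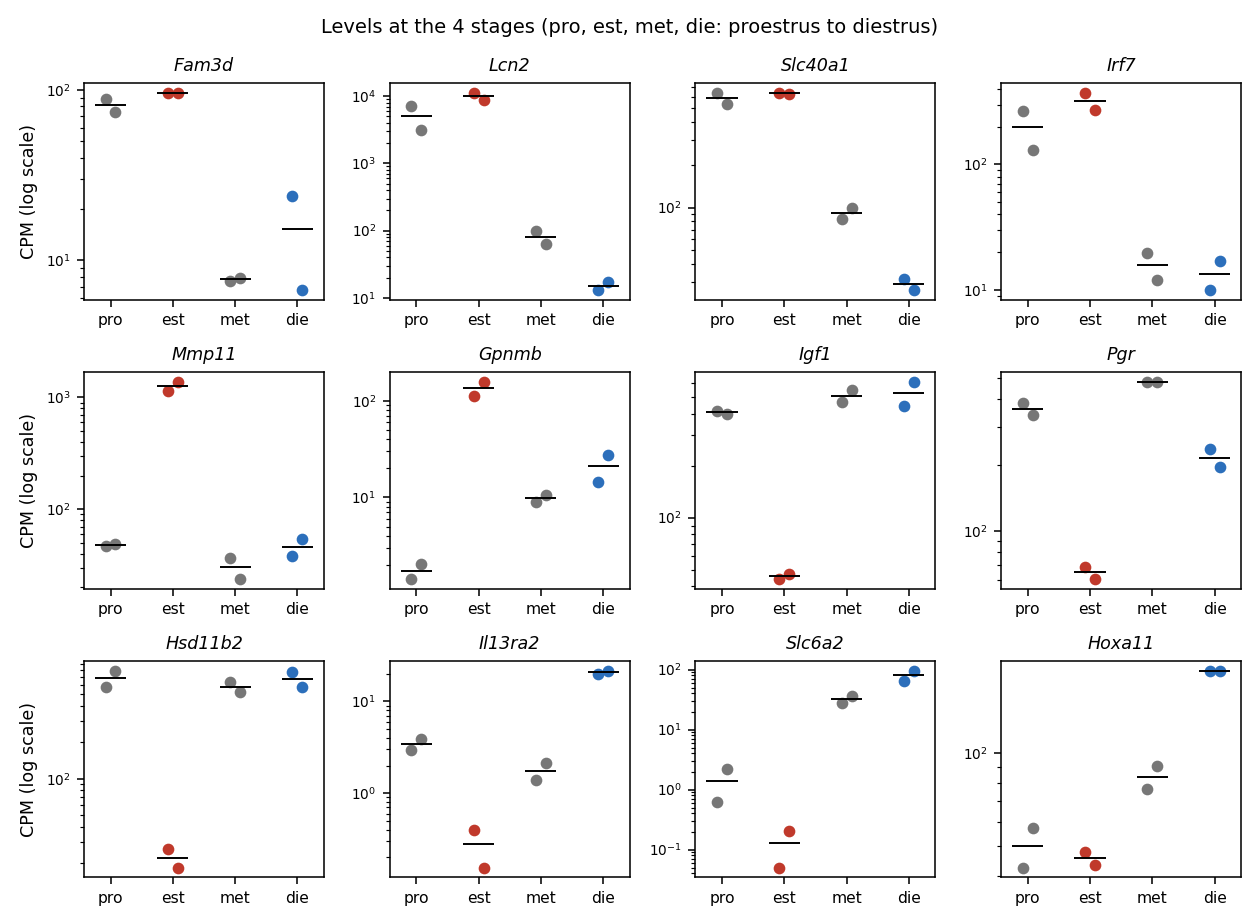
CPM (log scale) of 12 genes in each library at the 4 stages in the order of the cycle, with the stage mean as a bar; estrus is red and diestrus blue. Fam3d, Lcn2, Slc40a1 and Irf7 are high in proestrus as well as estrus, Mmp11 and Gpnmb peak in estrus, Igf1, Pgr and Hsd11b2 dip in estrus, and Il13ra2, Slc6a2 and Hoxa11 are highest in diestrus.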

How the data were processed

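Per the labels' protocols, uteri were staged by vaginal smear and stranded mRNA libraries were prepared with the TruSeq kit from total RNA. The authors deposited whole-number counts per gene. Per the submitters' processing notes these came from STAR and featureCounts of the Subread package on GRCm38 (mm10). The sources used here give neither their versions nor the strand setting, so overlapping antisense genes cannot be told apart.

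Starting from those counts, all 8 libraries were fitted with edgeR 4.0.16 in R 4.3.3, with 1 coefficient per stage, TMM factors between 0.8975 and 1.111 and the filterByExpr defaults. These are a minimum count of 10 and a minimum total of 15, and they left 34194 genes untested. Estrus minus diestrus, and its difference from proestrus minus metestrus, were tested with the two-sided quasi-likelihood F test and Benjamini-Hochberg adjustment over the 18114 genes. The fit had 4 residual degrees of freedom, to which the prior added 2.698, and the common biological coefficient of variation was 0.2501. The 4 totals were 21391192 and 20102821 counts in estrus, against 21896786 and 17863546 counts in diestrus. Between the libraries of a stage the chi-square per degree of freedom was 15.7 to 95.4, above counting noise, so no library was treated as another's file deposited again, though repeat preparations of the same RNA cannot be told apart from separate animals. Of the identifiers, 52058 were found in GENCODE M21 and 250 were not. Those not found held at most 0.0107% of a library's counts. For correlations, log2 CPM had a prior count of 2.

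The members and the 36 gene lists, with 610 genes, were chosen with earlier results of these data known. The genes described are the 12 largest log2 fold changes each way among called genes of at least 5 mean CPM in the higher stage, and the 6 largest each way in the test against the other pair. To these come up to 5 members of each list with the smallest p (the most abundant in lists of other tissues), all FAM3 genes and steroid receptors, the 6 widest gaps each way between the diestrus libraries at 20 CPM or more, and the 5 genes most like Fam3d. Predicted genes were skipped, and some genes are not reported here. Ltf, C3, Sprr2f, Greb1, Irf7, Isg15, Ifit1, Ifit3, Cxcl10, Cd14, C1qa, C1qb, C1qc, Cd163, Lyz2, Trem2, Fst, Fkbp5, Ptch1, Col1a1, Col3a1, Krt5, Krt14, Krt18, S100a8, S100a9, Hspa5, Mki67, Oxtr and Jun fall outside this rule and were chosen after their values were seen. Alternatives were DESeq2 1.42.0, its size factors within edgeR, limma-voom (limma 3.58.1), no filter or a floor of 1 CPM in 2 libraries, the 4 libraries alone, a replicate block and leaving out each library. On counts simulated for estrus against diestrus over 17718 genes, the fit recovered 58% of 100 genes changed 4-fold and 9% of 100 changed 2-fold. Of its 71 calls, 4 were false. The simulation gave every stage the same spread per gene. The real libraries were over 2-fold apart at 15% of genes in diestrus and 7.08% in estrus, so these figures cannot be carried over to the data. Tables were joined in python 3.11.15.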

Additional observations from a re-analysis of the deposited data

How the results depend on the processing

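With only the 4 libraries of the pair, 1362 genes were higher and 577 lower in estrus, against 2511 and 1806 with all 8 libraries, in a fit with fewer samples. Leaving out each library gave 900 to 2669 higher and 436 to 2504 lower genes. The share of higher genes among those called was 58.2%, and it was 70.2% with the 4 libraries alone, 67.4% and 71.2% without estrus library 1 and 2, and 55.1% to 61.2% under the other tools, scalings and filters. For the test against the proestrus-metestrus difference (39 above 0, 34 below 0), DESeq2 called 502 and 458, the fit with no filter on low counts 251 and 205, and the fits without a library 0 to 522 and 0 to 556. The cause was not tested.

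Same-numbered libraries did not deviate together: the correlation of their deviations was -0.0127 for estrus with diestrus and -0.0926 to 0.1449 for the other pairs of stages. A replicate block gave 2564 higher and 1928 lower genes, and it called 24 differences from the other pair above 0 and 29 below. With it C3 (0.0444) and Col1a1 (0.0468) passed, and 7 replication genes were called lower.

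Of the 2511 genes higher in estrus, 773 (30.8%) were called the same way in all 16 fits, as were 291 (16.1%) of the 1806 lower. Among 273 genes followed singly, 85 of 173 called genes held their call in every alternative, and DESeq2's size factors changed no call. By limma-voom, 19 genes lost their call, Greb1 (adjusted p = 0.0745) among them, and 10 gained one. By DESeq2, 3 lost theirs and 29 gained one. Without estrus library 1 or 2, 78 or 64 lost theirs. Pck1 reversed between the fits without diestrus library 1 (2.73) and library 2 (-1.24), and Calb1 likewise (-2.16 and 4.32). With 2 libraries a stage, the fit recovered 9% of simulated 2-fold changes. The simulation changed 100 of 17718 genes at each fold, whereas 4317 of 18114 genes were called in the data. The adjustment depends on that share, so the 9% cannot be carried over to the data. Of the called genes, 1666 of 2511 higher and 932 of 1806 lower ones differed over 2-fold, so smaller differences were called too. The median log2 fold change of all genes lay between -0.061 and 0.001 in every fit.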
